A study of Rattus norvegicus with 12 samples.

Results

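The genes described here were 10 genes of the early transcriptional response, Fos, Fosb, Junb, Egr1, Nr4a1, Nr4a3, Atf3, Ier2, Sik1 and Phlda1, followed rat by rat in the left ventricle. They were found by their symbols among the 34700 genes of the count table, and the list itself had been chosen by levels measured in these same rats. Each value below is therefore a description of these hearts, and an adjusted p printed for one of the genes is no independent evidence for it. All 10 genes passed the filter on low counts, as did 15617 genes in all.

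Left ventricular RNA was sequenced from 12 male Sprague-Dawley rats in 4 groups of 3, named Sham, HF, HFE and BAIBA. Every rat was operated on at 8 weeks of age, and the hearts were taken 12 weeks after surgery. The Sham rats had the coronary artery threaded but not tied, and the HF rats had the left anterior descending artery ligated and stayed sedentary. The HFE rats had the same ligation and then 8 weeks of treadmill running, 60 min a day on 5 days a week at 50 to 60% of their maximum intensity. The BAIBA rats had the ligation and 8 weeks of beta-aminoisobutyric acid by gavage at 75 mg/kg/day, an amino acid derivative released by working muscle. The Sham and HF rats of the BAIBA experiment were given water by gavage. The tissue came from the anterior left ventricular wall, from the area around the infarct in the HF and BAIBA rats, and the hearts were removed under deep anaesthesia after echocardiography. The time between the last run and the removal of the heart is not given in the sources used here.

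Immediate early genes are transcribed within minutes of a stimulus without new protein synthesis, through factors such as SRF and CREB that already sit at their promoters. Fos, Fosb and Junb encode subunits of the AP-1 dimer, Egr1 is a zinc finger factor, and Nr4a1 and Nr4a3 are orphan nuclear receptors, so that the first wave of transcripts drives a second. Their mRNAs are short-lived, and in the heart they are known to respond to stretch, adrenergic stimulation and ischaemia. Sik1 encodes a salt-inducible kinase that is itself induced by cAMP and holds the CREB coactivators of the CRTC family in the cytoplasm. Phlda1 encodes a pleckstrin homology-like protein that is induced by growth factor and stress signals.

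Levels are in CPM, read counts scaled to the library total and adjusted over the 12 rats with TMM factors. Each library held between 14812541 and 19732588 counts on genes. The rats are separate animals, and no pair of replicates agreed within sampling noise. The summed level of 8 cardiomyocyte markers was 45640 to 47716 CPM in Sham, 38935 to 40640 in HF, 39325 to 45720 in HFE and 38870 to 45853 in BAIBA. In the sum the HF rats lay below all Sham rats, while only 2 of the 8 markers did so one by one. The sum of 8 macrophage markers was 88.8 to 122 CPM in HFE, below every rat of the Sham (156 to 179), HF (129 to 238) and BAIBA (143 to 322) groups. The sum of 5 erythroid markers was 910 to 1300.4 CPM in BAIBA, above every Sham rat (541 to 782) and every HFE rat (717 to 827) but not every HF rat (499 to 1127). The sum of 4 epicardial and mesothelial markers was 23.8 to 72.6 CPM in BAIBA, above the Sham (18.0 to 21.7) and HFE (19.1 to 23.4) rats, and overlapped with HF. In BAIBA rat 2, the lowest BAIBA rat, nearly all of this sum was Wt1, at 22.7 CPM. The part of these cells in the levels of the 10 genes was not tested. In bulk tissue, fewer cells of a type and less RNA per cell cannot be told apart. The replicate number of a rat names one animal and carries no order.

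Both HFE rat 3 and HF rat 1 stood apart from the other rats in levels of the 10 genes. In HFE rat 3, 64 of the 15617 genes (0.41%) were at least 2-fold above the highest of the other 11 rats, and 9 of the 10 genes described here were among them. Only Phlda1 was not, at 0.886 times the highest other rat. HFE rat 3 had a total count of 16494233, inside the range of the other rats, and a TMM factor of 0.962. In HF rat 1, with HFE rat 3 left aside, 259 genes (1.66%) were at least 2-fold above the highest of the 10 other rats, and these included Fos and Egr1. HF rat 1 also had the highest summed level of 4 adipocyte markers, 23.2 CPM, and the next highest sum of 5 neutrophil and mast cell markers, 17.9 CPM. The part of these cells in the levels of HF rat 1 was not tested. BAIBA rat 1 stood apart in other genes, with 106 (0.679%) at least 2-fold above all other rats and 0 of the 10 among them. The comparisons that include HFE rat 3 or HF rat 1 are given with and without that rat. Leaving out BAIBA rat 1 is given where it changed a call of the 10 genes.

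**Figure D1:**
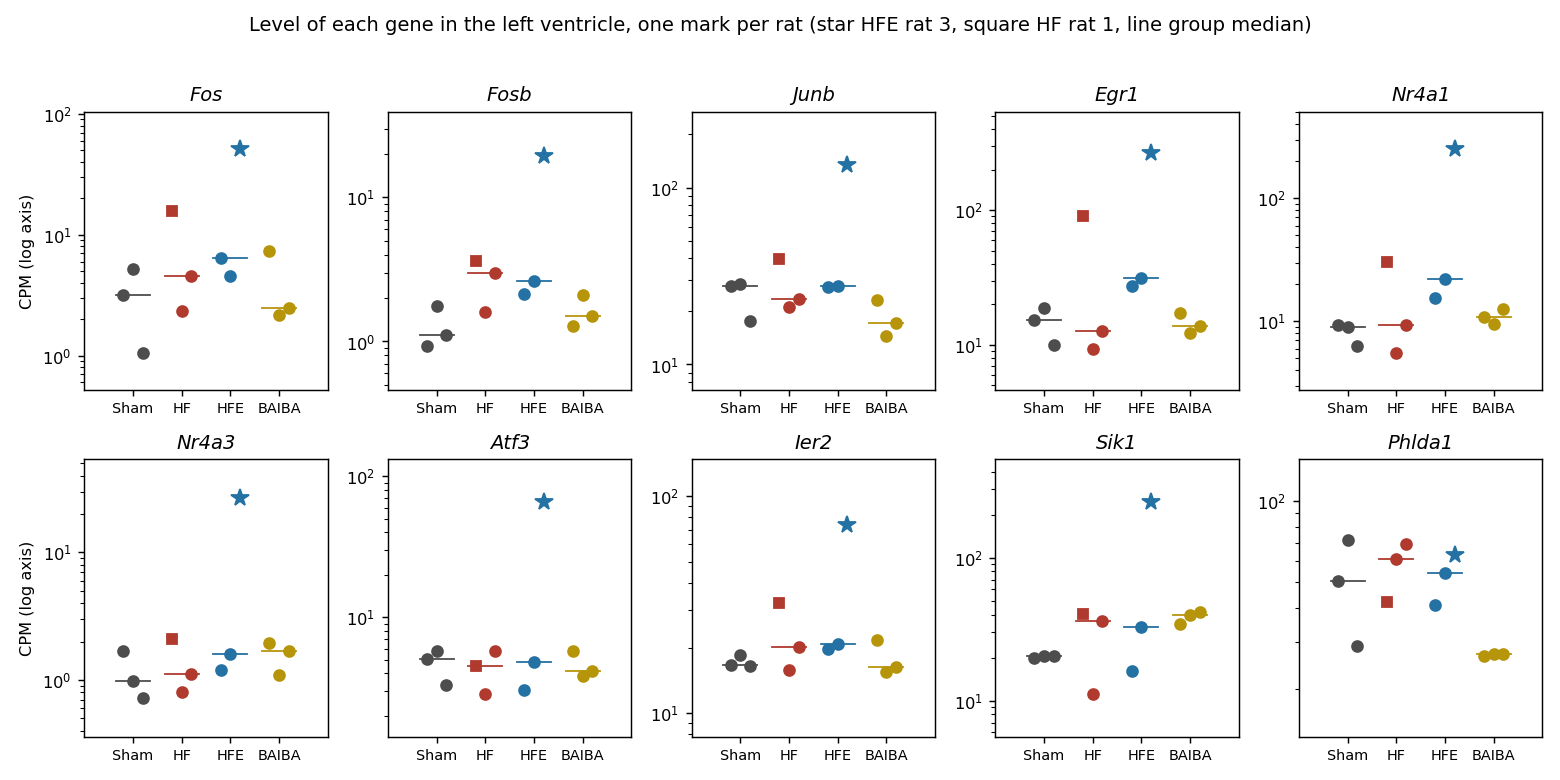
Level of each of the 10 genes in CPM on a log axis (vertical) by group (horizontal), with 1 mark per rat, a star for HFE rat 3, a square for HF rat 1 and a line at the group median. The star lies above every other mark in each panel except that of Phlda1, where the 3 BAIBA rats lie lowest.

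Promoters are shown as a description of these genes, and their part in the levels was not tested. The stretches below come from the RefSeq annotation of the GRCr8 assembly, which had an entry for 7 of the 10 genes, and a position is counted in bases from the annotated transcription start. The 250 bases upstream of the start were searched on both strands for the cAMP response element TGACGTCA (full CRE), its part TGACG (short CRE, which is also found within every full CRE), the AP-1 site TGANTCA, the TATAAA box and the CArG box bound by SRF. Capitals mark short and full CREs, and each stretch is written in the direction of transcription. The promoters of Ier2, Sik1, Nr4a1 and Junb are shown because they hold such a match, and that of Phlda1 because it does not.
Ier2, chr19:40399297-40399324, plus strand, -76 to -49: ggcgtttcagTGACGTCActcttactct
Sik1, chr20:9958812-9958847, minus strand, -201 to -166: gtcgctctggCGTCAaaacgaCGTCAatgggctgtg
Nr4a1, chr7:134260046-134260099, plus strand, -92 to -39: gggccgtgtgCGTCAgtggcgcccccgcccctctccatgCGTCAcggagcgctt
Junb, chr19:40080961-40080985, plus strand, -165 to -141: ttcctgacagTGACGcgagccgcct
Phlda1, chr7:48853630-48853689, plus strand, -60 to -1: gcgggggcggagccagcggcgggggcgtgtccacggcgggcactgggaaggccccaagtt

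A short CRE was found in 5 of the 7 promoters, those of Nr4a1, Egr1, Junb, Ier2 and Sik1, and in 18.2% of 33469 rat promoters of the same length. Only the Ier2 promoter among the 7 held the full CRE, which was in 1.59% of all promoters. The Nr4a1 promoter held 4 short CREs, of which the 2 nearest to the start are printed. The Egr1 promoter held a pair of short CREs and a pair of CArG boxes, the latter at -105 to -96 and -83 to -74, while 1.5% of all promoters held a CArG box. TATAAA was matched in 2 of the 7, Fosb and Junb, and in 12.9% of all promoters. The Junb match lay at -49 to -44, and the Fosb match, at -180 to -175, was on the opposite strand. The AP-1 site was matched in 0 of the 7 and in 6.34% of all. A match to these letters is a description of the window and not a bound site, and none of these 5 motifs lay in the Phlda1 window.

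**Figure D2:**
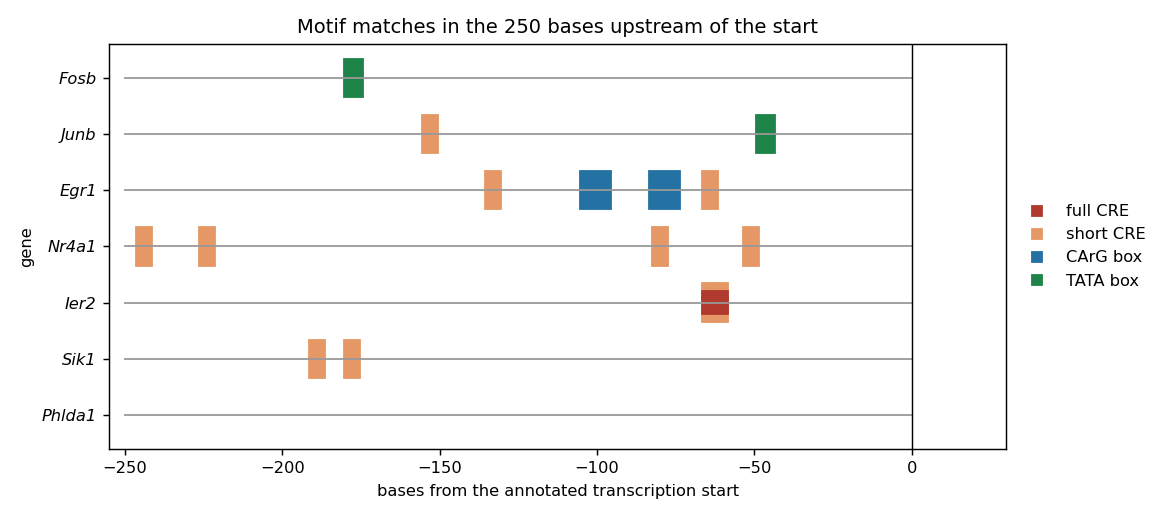
Matches to the CRE, CArG and TATA motifs in 7 promoters (rows) by distance in bases from the annotated transcription start (horizontal). Short CREs lie in 5 of the 7 promoters, the Fosb row holds only a TATA match on the opposite strand, and the Phlda1 row is empty.

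Fos, Fosb and Junb, the AP-1 subunits of the list, were highest in HFE rat 3 and next highest in HF rat 1. Fos was measured at 3.18, 5.20 and 1.04 CPM in the Sham rats, 15.7, 2.34 and 4.52 CPM in the HF rats, 6.39, 4.57 and 51.7 CPM in the HFE rats and 7.40, 2.18 and 2.47 CPM in the BAIBA rats. Fosb was measured at 0.926, 1.76 and 1.11 CPM in Sham, 3.60, 1.60 and 2.98 CPM in HF, 2.13, 2.63 and 19.5 CPM in HFE and 1.29, 2.11 and 1.50 CPM in BAIBA. The remaining HFE rats were inside the range of the HF rats for both genes, so the HFE and HF groups overlapped. Junb had a higher basal level, with 27.7, 28.6 and 17.5 CPM in Sham, 39.6, 21.1 and 23.3 CPM in HF, 27.3, 27.7 and 134 CPM in HFE and 23.3, 14.4 and 17.1 CPM in BAIBA. HFE rat 3 was 3.29-fold above the highest other rat for Fos, 5.41-fold for Fosb and 3.37-fold for Junb.

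Atf3, a stress-induced factor of the ATF/CREB family that can pair with Jun proteins, stood far above the other rats in HFE rat 3. Its level was 5.03, 5.72 and 3.33 CPM in Sham, 4.51, 2.84 and 5.74 CPM in HF, 3.06, 4.85 and 66.0 CPM in HFE and 5.72, 3.84 and 4.15 CPM in BAIBA. HFE rat 3 was 11.5-fold above the highest other rat, while the 10 rats left when HF rat 1 was set aside as well spanned a 2.02-fold range. HF rat 1, which was second for 7 of the 10 genes, was in the middle of the rats for Atf3.

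Egr1 showed the largest separate rise of HF rat 1. The Sham rats had 15.2, 18.7 and 9.91 CPM, the HF rats 91.5, 9.25 and 12.6 CPM, the HFE rats 27.2, 31.2 and 269 CPM and the BAIBA rats 17.3, 12.2 and 13.9 CPM. HFE rat 3 exceeded HF rat 1 by 2.94-fold, and HF rat 1 exceeded the highest of the remaining 10 rats by 2.93-fold. All 3 HFE rats were above all 3 Sham rats and all 3 BAIBA rats, and the groups HF and HFE overlapped only through HF rat 1. Ier2, a nuclear regulator of the early response, varied least of the 9 genes that were high in HFE rat 3. It stood at 16.7, 18.6 and 16.4 CPM in Sham, 32.2, 15.8 and 20.2 CPM in HF, 19.8, 20.9 and 74.0 CPM in HFE and 21.8, 15.5 and 16.2 CPM in BAIBA. Without HFE rat 3 and HF rat 1, the 10 remaining rats spanned 1.40-fold for Ier2 and 3.37-fold for Egr1.

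Nr4a1 and Nr4a3, the orphan nuclear receptors, held places 4 and 1 among all 15617 genes when ranked by the ratio of HFE rat 3 to the highest other rat. Nr4a1 was at 9.26, 9.04 and 6.33 CPM in Sham, 30.2, 5.55 and 9.35 CPM in HF, 15.5, 21.9 and 250.4 CPM in HFE and 10.8, 9.47 and 12.7 CPM in BAIBA. Nr4a3 was at 1.68, 0.975 and 0.717 CPM in Sham, 2.11, 0.802 and 1.12 CPM in HF, 1.20, 1.59 and 26.8 CPM in HFE and 1.96, 1.09 and 1.68 CPM in BAIBA. The ratio of HFE rat 3 to the highest other rat was 8.29 for Nr4a1 and 12.7 for Nr4a3. Outside HFE rat 3 the Nr4a3 level rested on 11 to 37 reads per rat, against 426 reads in HFE rat 3, so counting error is large among those 11 rats. For Nr4a1, as for Egr1, the other HFE rats also lay above every Sham and every BAIBA rat. Nr4a2, the third receptor of the family and no member of the list, was at 50.5 CPM in HFE rat 3 and between 3.19 and 5.31 CPM in the other rats.

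Sik1 was high in HFE rat 3. Without HFE rat 3 and HF rat 1, its Pearson r with the other genes high in HFE rat 3 ran from -0.364 (Junb) to 0.555 (Atf3). The Sham rats were close together at 19.8, 20.5 and 20.4 CPM, and the HF rats were spread at 40.3, 11.2 and 35.8 CPM. The HFE rats had 16.1, 32.8 and 244 CPM, and the BAIBA rats 34.2, 39.8 and 41.7 CPM. HFE rat 3 was 5.84-fold above the next rat, which was BAIBA rat 3 and not HF rat 1. All 3 BAIBA rats lay above all 3 Sham rats, whereas the HF and HFE groups each held rats below and above the Sham level. The kinases Sik2 and Sik3 did not share the pattern of HFE rat 3, with ratios to the highest other rat of 0.914 and 0.654. Per length of transcript, the median FPKM in Sham was 4.18 for Sik1, 4.85 for Sik2 and 8.63 for Sik3, and in HFE rat 3 Sik1 reached 47.0 FPKM.

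Phlda1 followed a separate course. It was measured at 50.5, 71.5 and 29.0 CPM in Sham, 42.4, 60.7 and 69.6 CPM in HF, 41.1, 54.2 and 63.3 CPM in HFE and 26.7, 27.0 and 27.1 CPM in BAIBA. The 3 BAIBA rats were almost equal and below all of the other 9 rats, the nearest of which was Sham rat 3. HFE rat 3 was inside the range of the HF rats, and leaving it out changed little.

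Per length of transcript, the order of the 10 genes in HFE rat 3 was not that of the Sham hearts. In Sham the median was 27.6 FPKM for Phlda1, 15.4 for Junb, 11.5 for Ier2, 4.79 for Egr1, 4.18 for Sik1, 3.44 for Nr4a1, 1.98 for Fos, 1.71 for Atf3, 0.305 for Fosb and 0.226 for Nr4a3. The Sham rats overlapped between the neighbours Junb and Ier2, Egr1 and Sik1, Nr4a1 and Fos, Fos and Atf3, and Fosb and Nr4a3, so those places are not separated, and they did not overlap between the other neighbours. In HFE rat 3 the values were 90.6 FPKM for Nr4a1, 82.6 for Egr1, 72.1 for Junb, 48.4 for Ier2, 47.0 for Sik1, 33.6 for Phlda1, 31.3 for Fos, 21.8 for Atf3, 5.88 for Nr4a3 and 5.01 for Fosb. Phlda1 was thus first in Sham and in the middle in HFE rat 3, and Nr4a1 moved from the middle to first.

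**Figure D3:**
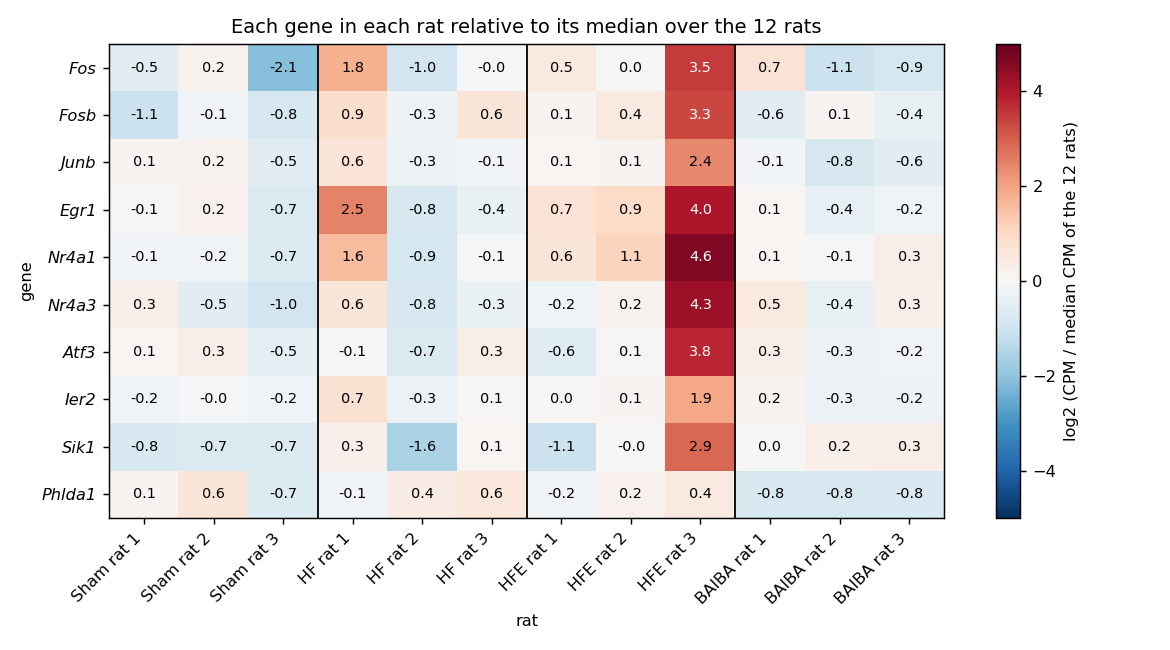
Each gene (rows) in each of the 12 rats (columns) as the log2 ratio of its CPM to its median over the rats, red above and blue below. HFE rat 3 is deep red in 9 rows, HF rat 1 is red mainly for Fos, Egr1 and Nr4a1, and the BAIBA rats share a like blue only for Phlda1.

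The spread between rats of one group was wide for these genes compared with other genes. The pooled within-group standard deviation of log2 CPM was 0.240 for the median gene, and between 0.612 (Ier2) and 1.37 (Fos) for the 9 genes that were high in HFE rat 3, which is above 87.1% to 98.4% of genes. Without HFE rat 3 and HF rat 1 it fell to 0.336 for Egr1, 0.333 for Nr4a1 and 0.193 for Ier2, the last of which is above 41.8% of genes. Fos and Sik1 stayed variable without those rats, at 0.896 and 0.572, above 95.8% and 86.9% of genes. Atf3 was next, at 0.445 and above 78.6% of genes, where the median gene had 0.225. Phlda1 had 0.407 with all rats and 0.398 without those 2.

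Ligation alone was compared in HF against Sham. By edgeR's quasi-likelihood test, 0 of the 10 genes and 0% of 14957 genes passed an adjusted p under 0.05 with an absolute log2 fold change over 1. At an unadjusted p under 0.05 there were 898 genes in all and 1 of the 10, Fosb, and DESeq2 called 24 genes in all and 0 of the 10, with no adjusted p for Egr1. Mean levels were higher in HF for 9 of the 10 genes, with a median log2 fold change of 0.46 against 0.01 over all genes tested. No gene of the 10 separated the HF rats from the Sham rats without overlap, as did 11.7% of all genes. The largest differences were 1.37 ± 0.96 (SE) for Egr1, 1.26 ± 0.84 for Fos and 1.11 ± 0.40 for Fosb on the log2 scale (n = 3 rats a group). These rested on HF rat 1 in part, since without it Egr1 stood at -0.42 ± 0.28, Fos at 0.13 ± 0.65 and Fosb at 0.86 ± 0.43, and the median over the 10 genes was -0.04. The cardiomyocyte marker sum separated the same groups, lower in HF, but only 2 of its 8 markers did so. The median log2 fold change over that list was -0.05. Myh6, its gene of highest level, was at 17305 to 19659 CPM in Sham and 11206 to 13949 CPM in HF. The part of these markers in the values of the 10 genes was not tested.

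Running was compared with sedentary HF in HFE against HF. By edgeR 0 of the 10 genes were called, with 0% of 14938 genes called, and the lowest adjusted p among the 10 was 0.674. An unadjusted p under 0.05 was reached by 1139 genes in all and 0 of the 10, and DESeq2 called 22 genes in all and 0 of the 10, with no adjusted p given for Egr1, Nr4a1, Nr4a3 and Atf3. The fitted differences were nevertheless wide, with 2.87 ± 1.38 for Nr4a3, 2.67 ± 1.34 for Nr4a1, 2.50 ± 1.28 for Atf3 and 1.75 ± 1.14 for Sik1, and a median of 1.55 over the 10 genes. All 10 genes overlapped between the groups, while 14.3% of all genes did not. Without HFE rat 3 the median was -0.18, and only Nr4a1 (0.31 ± 0.78) and Nr4a3 (0.05 ± 0.52) kept a difference above 0. Without HFE rat 3 and HF rat 1 together, a choice made after the data were seen, the median was 0.24 and Egr1 stood at 1.41 ± 0.19 and Nr4a1 at 1.32 ± 0.30, with adjusted p-values of 0.143 and 0.332 by edgeR. Leaving out HF rat 1 alone moved the values the other way, to a median of 2.29 with 9 of the 10 genes higher in HFE, 3.32 ± 1.53 for Egr1 and 3.69 ± 1.82 for Nr4a1, against 1.52 ± 1.34 and 2.67 ± 1.34 with all rats. The number of the 10 that were higher in HFE was thus 9 with all rats, 9 without HF rat 1, 2 without HFE rat 3 and 8 without both. In this comparison the macrophage marker sum was lower in every HFE rat than in every HF rat, and its part in these values was not tested.

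Against Sham, the HFE rats gave the largest differences. By edgeR 0 of the 10 genes were called with 0% of 14804 genes, at a lowest adjusted p of 0.432 among the 10. At an unadjusted p under 0.05 there were 1656 genes in all and 2 of the 10, Fosb and Nr4a1, and DESeq2 called 72 genes in all and 0 of the 10, again without an adjusted p for Egr1, Nr4a1, Nr4a3 and Atf3. The fits gave 3.55 ± 1.35 for Nr4a1, 3.12 ± 1.48 for Nr4a3 and 2.91 ± 1.14 for Egr1, with a median of 2.54 over the 10. Fosb, Egr1, Nr4a1 and Ier2 were higher in all 3 HFE rats than in all 3 Sham rats, 4 of 10 genes where 17.8% of all genes did not overlap. With HFE rat 3 left out, Nr4a1 stood at 1.20 ± 0.21, Egr1 at 1.01 ± 0.25, Fosb at 0.93 ± 0.38 and Ier2 at 0.25 ± 0.11, so the direction of these 4 was that of each HFE rat, while Atf3 turned to -0.24 ± 0.31. The lowest edgeR adjusted p among the 10 in that fit was 0.138, for Nr4a1. Of the 8 macrophage markers, 5 were lower in all HFE rats than in all Sham rats, with a median log2 fold change of -0.67 over the list.

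**Figure D4:**
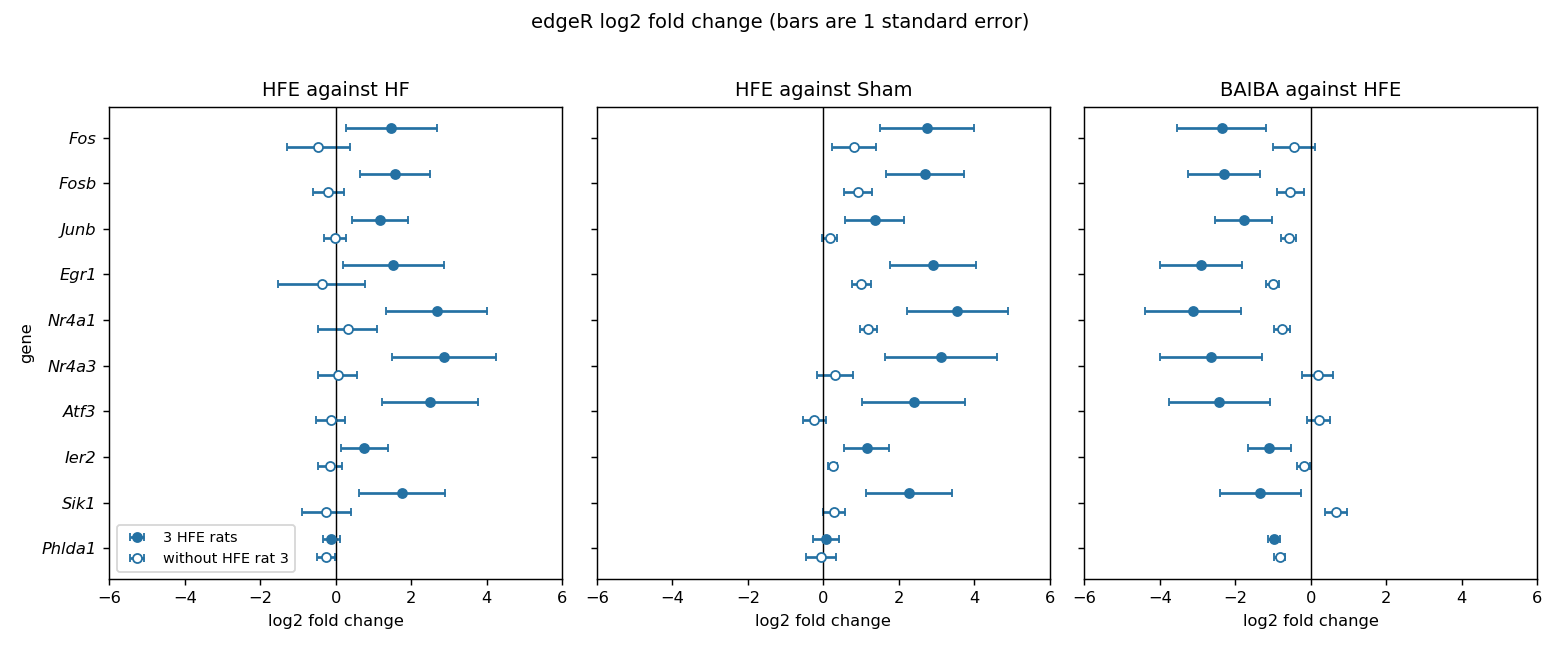
edgeR log2 fold change of each gene (horizontal, bars are 1 standard error) in HFE against HF, HFE against Sham and BAIBA against HFE, with all 3 HFE rats (filled) and without HFE rat 3 (open). In HFE against HF the median moves from 1.55 to -0.18 when that rat is left out, while Phlda1 hardly moves in any panel.

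BAIBA was compared with untreated HF. Of the 10 genes 1, Phlda1, did not overlap between the groups, a share no higher than that over all genes. By edgeR 0 of the 10 genes were called with 0% of 15039 genes. Unadjusted, 834 genes in all were under 0.05 with 1 of the 10, Phlda1, and DESeq2 called 31 genes in all and 1 of the 10, again Phlda1, with no adjusted p for Egr1. Phlda1 differed by -1.09 ± 0.17 on the log2 scale (edgeR adjusted p = 0.474, DESeq2 adjusted p = 0.000141), with no overlap between the rats, where 11.5% of all genes did not overlap. Without HF rat 1 its difference was -1.27 ± 0.12 with an edgeR adjusted p of 0.0393, which passed the threshold. The other 9 genes overlapped. Egr1 stood at -1.39 ± 0.95 with all rats and at 0.41 ± 0.22 without HF rat 1, and Nr4a1 at -0.46 ± 0.61 and 0.57 ± 0.26, so the direction of both turned on that rat.

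In BAIBA against HFE all 10 genes had a lower mean in BAIBA, with a median of -2.34. By edgeR 0 of the 10 genes were called where 12 of 14844 genes (0.0808%) were, and the lowest adjusted p was 0.0991 for Phlda1. At an unadjusted p under 0.05 there were 1420 genes in all and 2 of the 10, Phlda1 and Egr1, and DESeq2 called 171 genes in all and 0 of the 10, with no adjusted p for the same 4 genes and Fos. Fosb, Junb, Egr1, Nr4a1 and Phlda1 were lower in all 3 BAIBA rats than in all 3 HFE rats, 5 of 10 genes where 15.6% of all genes did not overlap. Leaving out HFE rat 3 gave -1.01 ± 0.18 for Egr1, -0.77 ± 0.20 for Nr4a1, -0.59 ± 0.20 for Junb and -0.54 ± 0.36 for Fosb. The edgeR adjusted p in that fit was 0.155, 0.316, 0.474 and 0.792 for these genes in turn, and at lowest 0.151 among the 10. Phlda1 kept its size, -0.97 ± 0.15 with that rat and -0.82 ± 0.14 without it. Sik1 changed direction, from -1.34 ± 1.08 to 0.66 ± 0.29, since the other HFE rats lay below the BAIBA rats. For Phlda1 in this comparison DESeq2 gave an adjusted p of 4.06e-05, at a fold change just short of the limit. The macrophage and erythroid marker sums were higher in every BAIBA rat than in every HFE rat. The median log2 fold change was 1.11 over the macrophage list and 0.62 over the erythroid list. The mesothelial sum hardly separated, at 23.8 CPM in the lowest BAIBA rat and 23.4 CPM in HFE rat 3. Wt1 alone was at 22.7 CPM in BAIBA rat 2 and 23.4 CPM in HFE rat 3. The HFE and HF comparisons share their rats with those of BAIBA, so these values are not separate evidence.

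Sik1 was the gene nearest to a call in BAIBA against Sham. By edgeR 0 of the 10 genes were called where 6 of 14920 genes (0.0402%) were, and Sik1 stood at 0.94 ± 0.11 with an adjusted p of 0.0512. An unadjusted p under 0.05 was found for 1106 genes in all and 2 of the 10, Sik1 and Phlda1, and DESeq2 called 78 genes in all and 0 of the 10. DESeq2 gave Sik1 an adjusted p of 8.00e-07 at a log2 fold change of 0.93, under the limit of 1, and without BAIBA rat 1 edgeR gave 1.02 ± 0.11 at 0.029, which was called. Nr4a1 and Sik1 were higher and Phlda1 was lower in all 3 BAIBA rats than in all 3 Sham rats, 3 of 10 genes where 12.7% of all genes did not overlap. The difference was 0.42 ± 0.19 for Nr4a1 and -0.89 ± 0.29 for Phlda1, and for Egr1 it was -0.0041 ± 0.24. The erythroid and mesothelial marker sums separated the same groups, higher in BAIBA, with a median log2 fold change of 0.97 over the erythroid list. One by one, 2 of 5 erythroid markers did so, and 0 of the 2 mesothelial markers tested. In BAIBA rat 2 the mesothelial sum was mostly Wt1, at 22.7 CPM, with Msln at 1.02 and Upk3b at 0.064 CPM.

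Other genes of the early response were read beside the 10 from lists put together for this work. In HFE rat 3 the genes at least 2-fold above every other rat were 7 of 19 further immediate early transcription regulators that passed the filter, 5 of 10 secreted or inducible early products, 3 of 12 cAMP response genes, 2 of 19 feedback inhibitors and 1 of 10 further AP-1 genes. All 3 of those cAMP response genes, Nr4a2, Per1 and Dusp1, are also counted among the regulators or feedback inhibitors. The regulators were Nr4a2, Egr3, Btg2, Klf4, Klf2, Per1 and Egr2, and the early products included the matricellular proteins Thbs1 (77.6 CPM against at most 11.8) and Ccn1 (352 CPM against at most 99.6). The feedback inhibitors were the MAP kinase phosphatase Dusp1 (368 CPM against at most 129) and Spry4. Of the further AP-1 genes only Fosl2 reached this, at 2.32-fold, and Jun itself was at 269 CPM against at most 151. None of the 15 upstream factors and kinases or 14 genes of the SIK family and its targets did so. Nor did any of the 11 hypoxia genes, 6 heat shock genes or 12 genes of the clock list. Per1, also a clock gene, was not on that list and was 2.29-fold above the highest other rat. Srf was 1.76-fold and Crem 1.84-fold above the highest other rat.

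**Figure D5:**
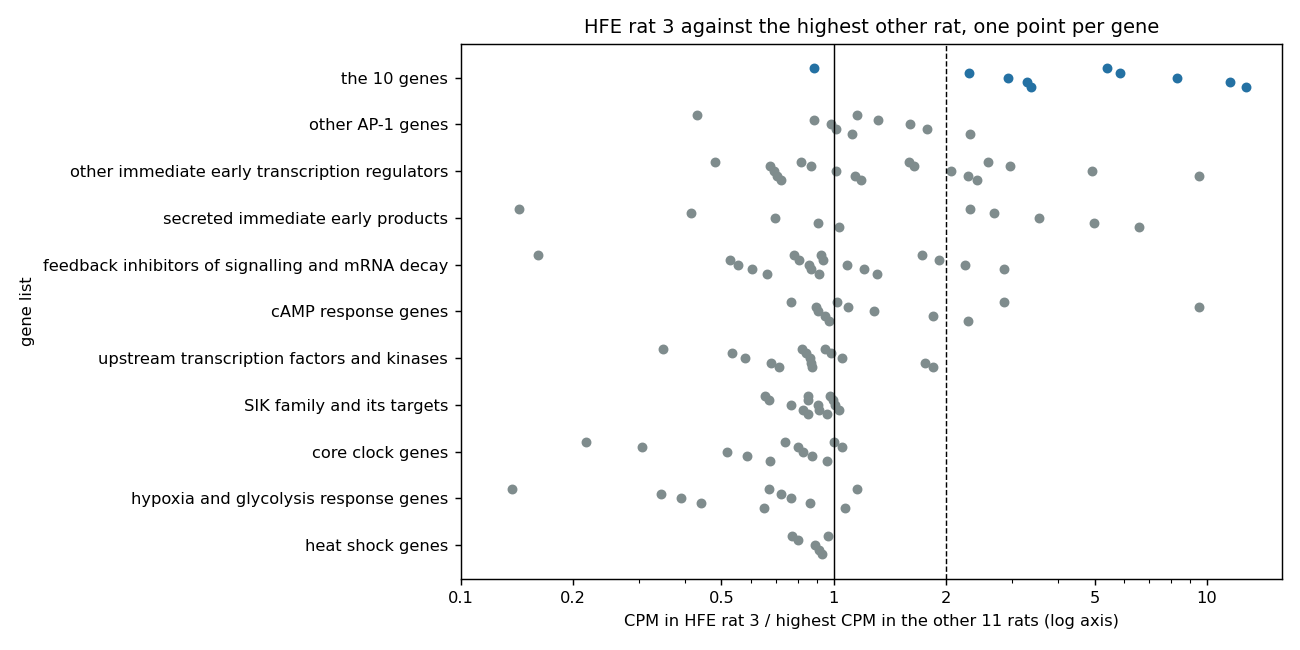
Ratio of the CPM in HFE rat 3 to the highest CPM in the other 11 rats (horizontal, log axis) for each gene of 11 lists (rows), with a solid line at 1 and a dashed line at 2. Of the 10 genes 9 lie right of the dashed line, and the lists of upstream factors, SIK family, clock, hypoxia and heat shock genes lie left of it. Per1 is plotted with the transcription regulators and the cAMP response genes, and not with the clock genes.

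None of the 189 listed genes other than the 10 was called by edgeR in any of the 6 comparisons, out of 174 to 177 tested in each, in the fit without pairs. An alternative edgeR fit took the replicate number as a block, although the numbers do not mark pairs of animals. It called 4 in BAIBA against HFE (Cd163, Ddit4, Dusp5 and Msln) and 1 (Myl7) in BAIBA against Sham. At an unadjusted p under 0.05 there were 11 of them in HF against Sham, 21 in HFE against HF, 15 in BAIBA against HF, 38 in BAIBA against HFE, 41 in BAIBA against Sham and 35 in HFE against Sham. DESeq2 called 14 of them in BAIBA against HFE, 6 in BAIBA against Sham, 4 in HFE against Sham and 2 in BAIBA against HF. Over the 14 genes of the SIK family and its targets, among them the CRTC coactivators and the class IIa deacetylases that SIK kinases phosphorylate, the median log2 fold change was -0.05 in BAIBA against Sham and -0.07 in HFE against Sham, and 0 of the 14 were called in each.

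The gene of highest mean level in each response list was taken as its example, whatever its pattern. Per1, of the transcription regulators, ranged from 17.2 to 248 CPM and was highest in HFE rat 3. Ccn2, a matricellular protein among the early products, ranged from 25.6 to 138 CPM with its highest value in BAIBA rat 1. Zfp36l1, which promotes mRNA decay, was between 112 and 161 CPM, Atf4, the stress response factor of the AP-1 list, between 99.8 and 129 CPM, and Mapkapk2, a kinase below p38, between 282 and 392 CPM. Prkar1a, a regulatory subunit of protein kinase A, was between 209 and 324 CPM, and Cab39, which activates the kinase upstream of SIK1, was between 104 and 119 CPM. Of the remaining lists, the chaperone Hspa8 was between 439.5 and 745 CPM, the growth factor Vegfa between 716 and 1186 CPM and the clock output factor Tef between 90.3 and 221 CPM. Only Per1 and Vegfa of these were highest in HFE rat 3, the latter by 1.07-fold.

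Cell type markers and clock genes were read beside the level of the 10 genes in HFE rat 3. For none of the 10 marker lists was a gene at least 2-fold above every other rat. The summed level of the 8 fibroblast and scar markers was the lowest of all rats in HFE rat 3, 1116 CPM against 1179 to 2111 in the others, and that of the 6 smooth muscle and pericyte markers was the highest, 516 CPM against 345 to 505. The clock genes Arntl and Npas2, chosen after their values were seen, were at 3.84 and 4.60 CPM in HFE rat 3. They were at 17.7 and 15.0 CPM in HFE rat 1 and at 10.95 and 11.7 CPM in HFE rat 2. Arntl was at 2.74 to 4.69 CPM in Sham, 5.48 to 10.98 in HF and 1.85 to 3.14 in BAIBA. Npas2 was at 2.74 to 3.97, 1.83 to 6.66 and 2.56 to 3.25 CPM in those groups. The part of the marker and clock genes in the levels of the 10 genes was not tested. Per1, which is both a clock gene and an early cAMP response gene, was lowest of all rats in HFE rat 1, where Sik1 also had its lowest HFE value.

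The genes whose log2 CPM was most like the mean profile of the 10 genes over the 12 rats were Cyr61 (the former symbol of Ccn1; Pearson r = 0.963), Egr3 (0.949), Actg1 (0.949), Dusp1 (0.942) and Btg2 (0.927). All points share 12 libraries and HFE rat 3 lies far from the rest, and without HFE rat 3 and HF rat 1 the same genes had r of 0.749, 0.736, 0.666, 0.450 and 0.271. Most like Sik1 were Sgk1 (0.968), Klf2 (0.962), Apold1 (0.955), Slc25a25 (0.954) and Mat2a (0.948). These had r of 0.893, 0.904, 0.857, 0.896 and 0.813 over the 10 other rats. Those rats were among the 12 used to pick the genes, so these values are no separate evidence. Among the 36 pairs of the 9 genes that were high in HFE rat 3, the median r was 0.889 over 12 rats and 0.456 over the 10, and Egr1 with Nr4a1 had 0.961 and 0.901. The 9 pairs that included Phlda1 had a median of 0.320 over 12 rats.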

How the data were processed

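RNA-seq was analysed for 12 rat left ventricles, grouped by the labels into Sham, HF, HFE and BAIBA. Reads were aligned with HISAT2 and counted on annotated and newly assembled genes (StringTie, featureCounts) by the authors. Deposited were the raw counts per gene and FPKM values that the authors computed from them. The submitters' processing notes name the mouse build mm9, although the gene identifiers are those of the rat. Tool versions and the strand setting of the counting are not given in the sources used here.

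The counts were fitted in R 4.3.3 with edgeR 4.0.16 (TMM, filterByExpr, robust quasi-likelihood F test) on the 2 groups of each of 6 comparisons, with no covariate. Calls needed a Benjamini-Hochberg adjusted p under 0.05 over all genes tested and an absolute log2 fold change over 1. The scripts were tested on simulated data. Alternatives were DESeq2 1.42.0, RLE and library-size scaling, no filter beyond 1 count, all 12 rats in one fit, the replicate block, each rat left out, and limma 3.58.1 on log2(FPKM + 1) and log2(FPKM + 0.1) for a mean FPKM of at least 0.1. An adjusted p that DESeq2 did not give was left out. Same-numbered rats are different animals, and the labels give no pairing. In BAIBA against HFE their deviations from the group means correlated weakly, at 0.174, 0.224 and 0.118. The replicate block is therefore given there as an alternative, and the fold changes and standard errors above are from the fit without it. With the replicate block that comparison had 32 genes called in place of 12, and 0 of the 10 in both.

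The members and lists were chosen with earlier results of these data known. Named genes were the 10, the called genes of each list or, with none called, its gene of highest mean CPM, and the 5 genes most correlated with the mean profile of the 10 and with Sik1 (log2 CPM, prior count 2). Other named genes, among them those above every other rat in HFE rat 3, were chosen after their values were seen.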

Additional observations from a re-analysis of the deposited data

How the results depend on the processing

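None of the 10 genes was called by edgeR in any of the 6 comparisons, and that count stayed at 0 under RLE or library-size scaling, no filter, all 12 rats in one fit, the replicate block, either FPKM scale and no limit on the fold change. It became 1 (Phlda1) in BAIBA against HF with DESeq2, ranged from 0 to 1 when each rat was left out there (1 without HF rat 1), and ranged from 0 to 1 in BAIBA against Sham (1, Sik1, without BAIBA rat 1). Of the other listed genes, 0 were called at first. DESeq2 called 2 in BAIBA against HF, 14 in BAIBA against HFE, 6 in BAIBA against Sham and 4 in HFE against Sham. With no filter the counts in the last 3 were 2, 1 and 1. The fit with the replicate block gave 4 in BAIBA against HFE (Cd163, Ddit4, Dusp5 and Msln) and 1 in BAIBA against Sham, and log2(FPKM + 0.1) gave 1 there. Leaving out each rat gave 0 to 2 in BAIBA against HFE (2 without HFE rat 3) and in BAIBA against Sham (2 without Sham rat 2, 1 each without Sham rat 3 and BAIBA rat 2), and 0 to 1 in HFE against Sham (1 without HFE rat 3). Without HFE rat 3 and HF rat 1, added after the data were seen, 1 (Nppa) was called in HFE against HF. Leaving out HFE rat 3 moved the number of the 10 genes that were higher in HFE than in HF from 9 to 2, and outside that rat the levels of Fosb and Nr4a3 rested on few reads.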
